A study of Homo sapiens with 4 samples.

Results

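The 4 genes described here, ARHGAP29, DAPK3, TPBG and LY6K, hold some of the most significant N6-methyladenosine (m6A) peaks that were listed both in untreated cells and in cells given chenodeoxycholic acid (CDCA), a primary bile acid. Peaks were assigned to a gene when their summit, the highest point of a peak, lay within the gene's span on the build hg19. The spans were chromosome 1 from 94.614 to 94.741 Mb for ARHGAP29, chromosome 19 from 3.958 to 3.972 Mb for DAPK3, chromosome 6 from 83.072 to 83.078 Mb for TPBG and chromosome 8 from 143.781 to 143.786 Mb for LY6K. All boundaries are given to the nearest kb and were not checked against an hg19 annotation. Distances to a boundary and shares of a span are therefore approximate, most of all for the short spans. ARHGAP29 and DAPK3 lie on the minus strand, TPBG and LY6K on the plus strand. Strands were taken with the spans, and a RefSeq gene table gave a match for all but LY6K, where none was recorded. This gave 25 peaks of 115281 in all: 12 of 63093 in the control list and 13 of 52188 in the CDCA list.

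The cells were GES-1, an established line of human gastric epithelium grown in RPMI-1640. They were left untreated or exposed to CDCA at 100 µM for 48 h, and RNA was immunoprecipitated with an m6A antibody and sequenced (MeRIP). The study comprised 4 samples, an input and an immunoprecipitation library for each condition, and the values below come from the 2 immunoprecipitation libraries, each with its own peak list. Each condition had 1 library, so the conditions could not be tested against each other, and the 95% intervals below cover counting error only. The genes were chosen by the significance of their peaks in these same 2 lists, so their strength values are given as a description. Markers of the cell type were not examined, since the lists name no genes. In the RefSeq table each of the 4 genes overlaps another: the long non-coding RNA ARHGAP29-AS1 and the pseudogene GAPDHP29 at ARHGAP29, the microRNA gene MIR637 at DAPK3, the long non-coding RNA LOC105377875 at TPBG and the long non-coding RNA LNCOC1 at LY6K. The lists give no strand, so where a peak lies in such an overlap its gene of origin cannot be told apart.

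m6A is written on messenger RNA by a methyltransferase complex, removed by demethylases such as ALKBH5, and read by proteins that alter the stability, splicing or translation of the transcript. In mammalian transcripts it is known to gather near stop codons, in 3′ untranslated regions and in long internal exons. ARHGAP29 is a GTPase-activating protein. DAPK3, also called ZIPK, is a serine/threonine kinase that phosphorylates myosin light chain and takes part in cell death. TPBG, the trophoblast glycoprotein 5T4 or WAIF1, is a leucine-rich-repeat protein of the cell surface that inhibits Wnt/β-catenin signalling. LY6K is a small surface protein of the Ly6 family held by a lipid anchor, and is known as a cancer/testis antigen.

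Each gene held 1 dominant m6A site that was present in both lists. Of the 12 control peaks, 8 shared at least 1 bp with a CDCA peak, where 18.2% (17.9 to 18.5) of all control peaks did. Of the 13 CDCA peaks, 9 shared bases with a control peak, where 22.2% (21.8 to 22.6) of all CDCA peaks did. The choice of the genes fixed 4 of these overlaps in each list, the leading peaks. Among the other peaks of the spans, 4 of 8 in the control list and 5 of 9 in the CDCA list were shared. In each list, 8 peaks of the 4 genes had a −log10 q of 100 or more. Without the 4 leading peaks, 2 of 4 such peaks were shared in control and 4 of 4 in CDCA, where 87.6% of all control and 91.2% of all CDCA peaks of that strength were shared.

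**Figure D1:**
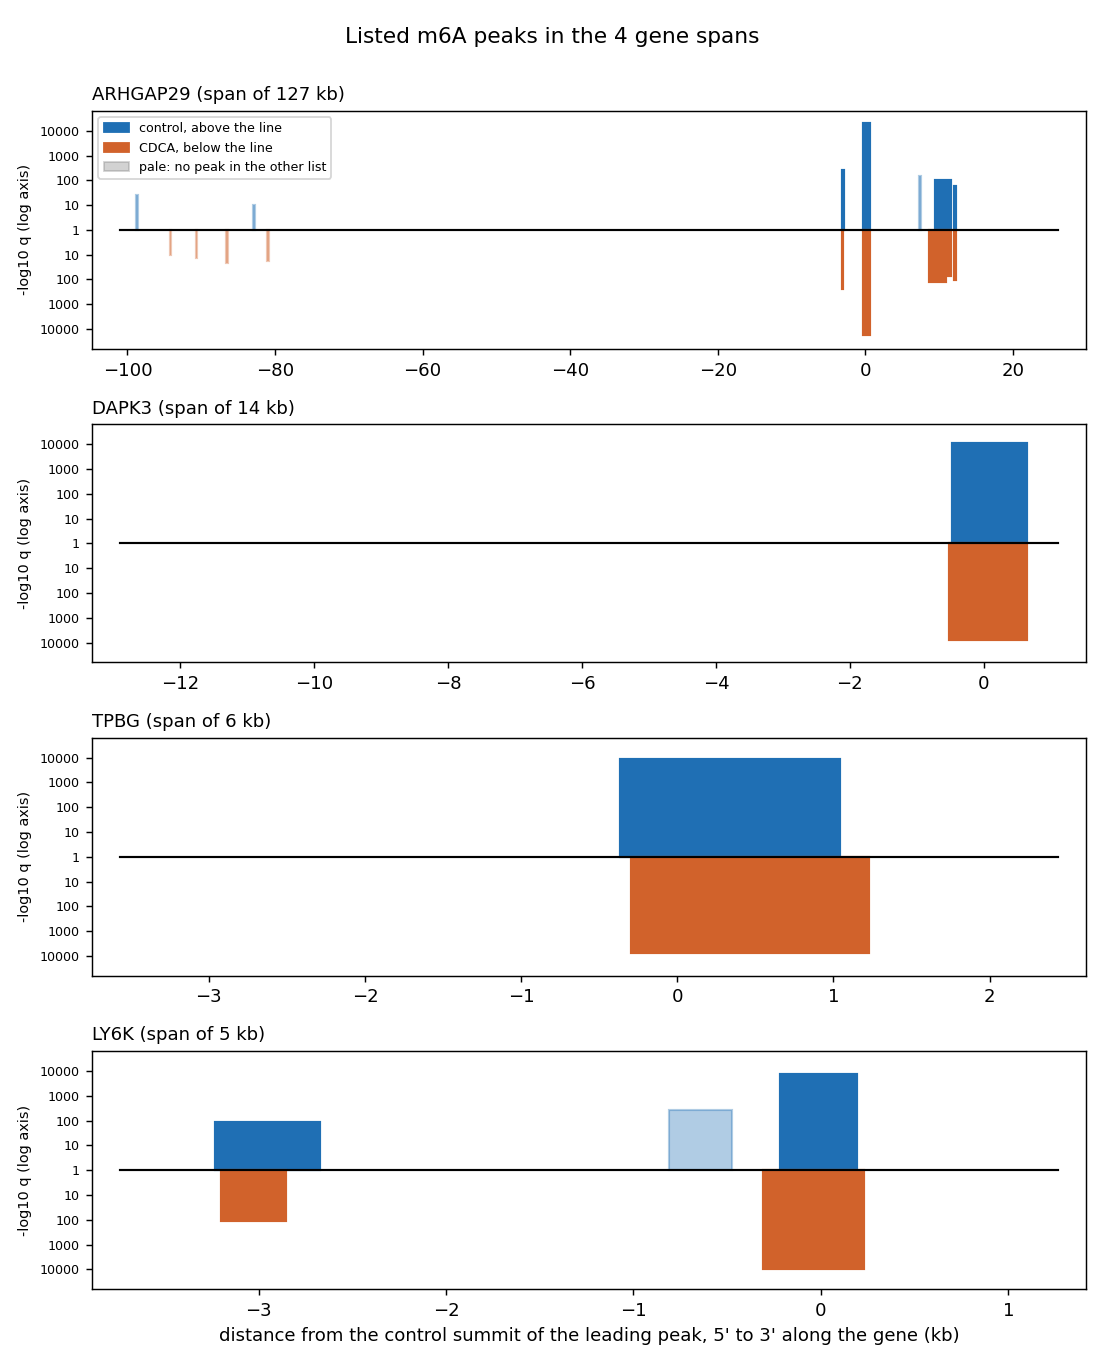
Listed m6A peaks in the 4 gene spans. The horizontal axis is the distance in kb from the control summit of the leading peak, running 5′ to 3′ along the gene; bars span each peak and their height is −log10 q on a log axis, with control above and CDCA below the line and pale bars for peaks with no partner in the other list. DAPK3 and TPBG have 1 peak in each list, whereas ARHGAP29 has 7 in control and 9 in CDCA and its peaks far upstream have no partner.

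ARHGAP29 carried the most significant m6A peak of both lists. In control cells the peak spanned 94639344 to 94640374 on chromosome 1, with a summit at 94640035, a length of 1031 bp, a summit height of 16045 and a −log10 q of 21048. In CDCA-treated cells it spanned 94639354 to 94640401, with a summit at 94640064, a length of 1048 bp, a height of 13695 and a −log10 q of 16732. The site was thus the tallest of each list, at rank 1 of 63093 and of 52188. Fold enrichment, the authors' ratio of summit height to local background, was 54.6 in control (48.6 to 61.5) and 44.2 in CDCA (39.5 to 49.6). It ranked only 436 and 542 by this ratio. The summit lay 26.0 and 26.1 kb from the 3′ boundary of the 127 kb span, which is given to the nearest kb.

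DAPK3 had a single peak in each list, at the 3′ end of the gene. It spanned 3958454 to 3959573 on chromosome 19 in control (1120 bp) and 3958452 to 3959626 in CDCA (1175 bp). Its summits, at 3959101 and 3959110, were 1.10 and 1.11 kb from the 3′ boundary of the span. Control height was 6644 and CDCA height 4694, and −log10 q was 11298 (rank 4) and 8117 (rank 6). Fold enrichment was 133 (100.4 to 180) in control and 141 (120 to 165) in CDCA, so each value lay within the counting interval of the other. The whole CDCA extent of 1175 bp covered every base of the control peak.

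The DAPK3 site stood alone in its neighbourhood. No other peak was listed within 30 kb of the span in either list, although EEF2, which encodes a translation elongation factor, is its next neighbour on one side in the RefSeq gene order. The nearest other peak was 53362 bp away in control and 48385 bp in CDCA. A −log10 q of 1000, a level set with the values in view, served to pick peaks of like strength. Among peaks at or above it, 44 of 395 in control (11.1%, 8.21 to 14.7) and 43 of 328 in CDCA (13.1%, 9.65 to 17.3) had no other peak within 30 kb. The leading peaks of the other 3 genes had a neighbour 253 to 10493 bp away in control and 2541 to 3298 bp away in CDCA.

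TPBG had the highest fold enrichment of every peak in both lists. In control the value was 429 (316 to 599) and in CDCA 264 (208 to 339). Its single peak spanned 83075197 to 83076605 on chromosome 6 in control (1409 bp, summit 83075566) and 83075268 to 83076797 in CDCA (1530 bp, summit 83075598). Heights were 3947 and 3901, which ranked 35 and 23, and −log10 q was 8873 (rank 5) and 7870 (rank 7). The summits lay 2.43 and 2.40 kb from the 3′ boundary of the 6 kb span. The peak covered 23.5% of that span in control and 25.5% in CDCA.

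LY6K had the shortest of the 4 leading peaks in each list. It spanned 143784519 to 143784929 on chromosome 8 in control (411 bp) and 143784427 to 143784967 in CDCA (541 bp). The summits, at 143784738 and 143784737, were 1 bp apart and 1.26 kb from the 3′ boundary of the 5 kb span. Heights were 6337 and 7133, and −log10 q was 7816 (rank 10) and 9956 (rank 5). Fold enrichment was 45.3 (38.3 to 53.9) in control and 66.1 (54.6 to 80.7) in CDCA, 2 intervals that did not overlap. Of the 4 genes, LY6K alone had a CDCA height and a CDCA −log10 q above the control value. The lists were made separately, each scaled by its own factor and set against its own background. These values side by side therefore cannot show whether methylation changed.

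**Figure D2:**
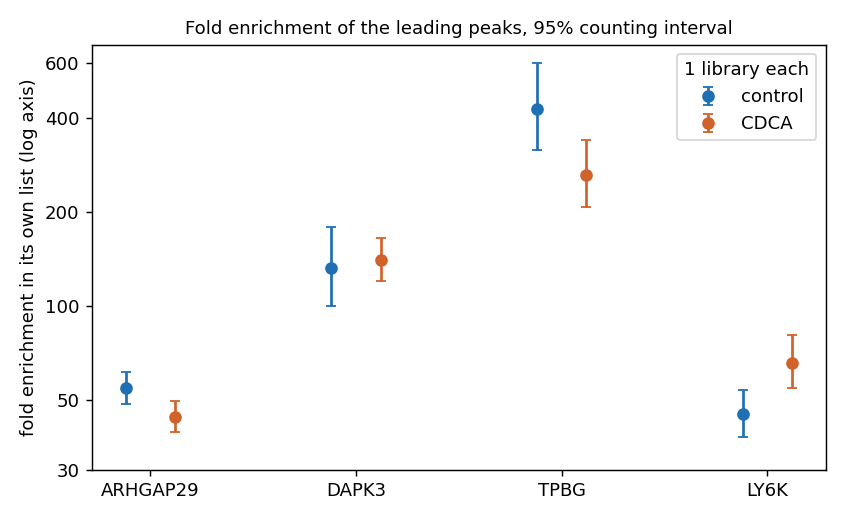
Fold enrichment of the leading peak of each gene (log axis) in the control and CDCA lists, 1 library each, with 95% counting intervals as bars. TPBG is the highest in both lists, at 429 and 264, and the intervals of LY6K, 38.3 to 53.9 and 54.6 to 80.7, do not meet.

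The 4 sites reached their significance in different ways. The local background, the coverage that the peak caller set against each summit, was 293 in control and 309 in CDCA at the ARHGAP29 peak, 139 and 107 at LY6K, 49 and 32.4 at DAPK3, and 8.20 and 13.8 at TPBG. The order of the 4 genes by background was the same in both lists. Within peaks of −log10 q of at least 1000, 94.7% of control and 95.4% of CDCA peaks had a lower background than ARHGAP29. Only 6.84% and 14.3% had a lower background than TPBG. The TPBG summit was nevertheless higher than 91.1% and 93.0% of those peaks. The median background of these strong peaks was 39 in control and 41.0 in CDCA, close to DAPK3. The sample that supplied the background is not given in the sources used here.

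**Figure D3:**
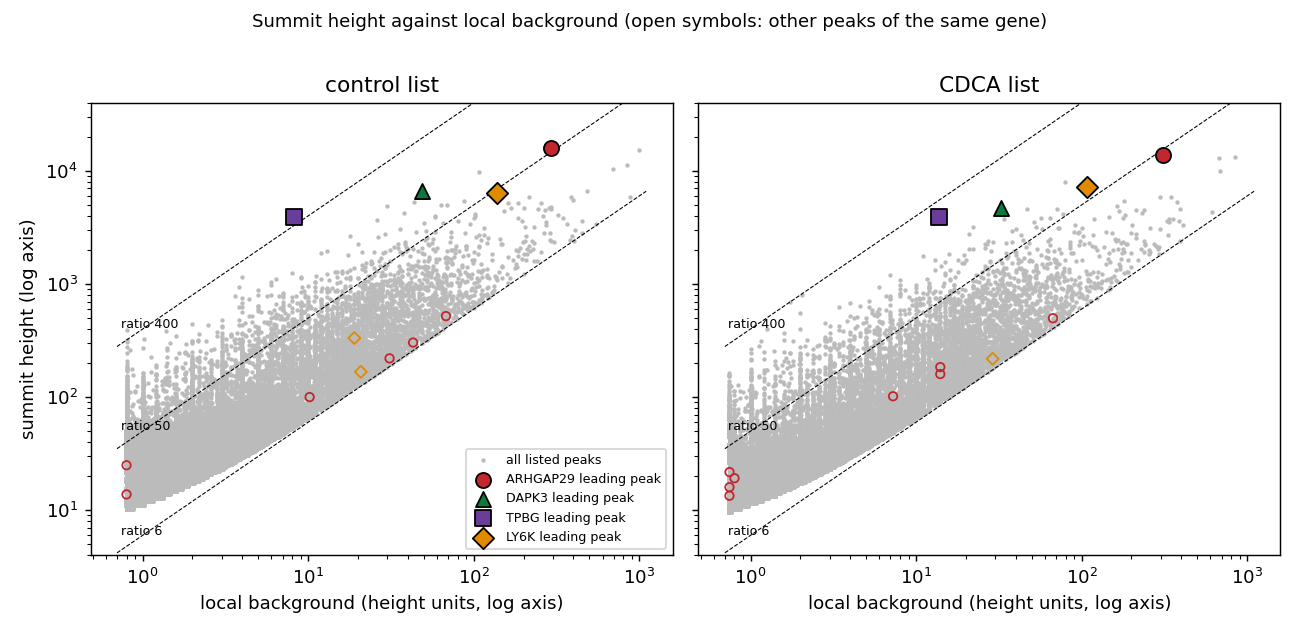
Summit height against local background for all listed peaks of each library (grey, log axes), with the leading peaks of the 4 genes as filled symbols and their other peaks as open symbols; dashed lines mark height-to-background ratios of 6, 50 and 400. ARHGAP29 is the tallest peak on a high background (293 and 309), and TPBG stands apart at the upper left with a background of 8.20 and 13.8.

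The depth behind these values could be read from the lists. All heights were whole multiples of 0.862 in control and 0.640 in CDCA, with a tolerance of 0.02 steps, and 1 step was taken as 1 fragment. The ARHGAP29 summit then rested on 18604 fragments in control (18338 to 18873) and 21411 in CDCA (21125 to 21700). DAPK3 rested on 7703 (7532 to 7877) and 7339 (7172 to 7509), TPBG on 4576 (4444 to 4711) and 6098 (5946 to 6253), and LY6K on 7347 (7180 to 7517) and 11152 (10946 to 11361). The background was far less deeply sampled. Taken as fragments in a window of 200 bp where it was a whole number, or of 1000 bp where it was a multiple of 0.2, it came to 293 and 309 fragments at ARHGAP29, 139 and 107 at LY6K, 49 and 162 at DAPK3, and 41 (29.4 to 55.6) and 69 (53.7 to 87.3) at TPBG. The width of the fold intervals therefore comes mainly from the background, and it is widest for TPBG and DAPK3 in control.

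The order of the 4 genes depended on the measure. By −log10 q the control order was ARHGAP29, DAPK3, TPBG, LY6K and the CDCA order ARHGAP29, LY6K, DAPK3, TPBG. By fold enrichment TPBG came first and DAPK3 second in both lists, followed by ARHGAP29 and LY6K in control and by LY6K and ARHGAP29 in CDCA. By length the order was TPBG, DAPK3, ARHGAP29 and LY6K in both lists. By height TPBG was last in both lists. The peaks nearest in −log10 q included sites outside the 4 genes. In control, the sites at ranks 2 and 3 lay on chromosome 17 at 48166452 to 48167837 (fold 89.4) and on chromosome 11 at 122928177 to 122928575 (fold 15.3, background 989). Between TPBG and LY6K stood 4 more, on chromosomes 21, 2, 11 and 6, with folds from 13.3 to 156. The first site past LY6K in control, at rank 11, was on chromosome 1 at 179076608 to 179078647 (fold 61.6, −log10 q 7437).

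The choice of the genes fixed that their leading peaks overlap, so closeness in position was partly set in advance and is given as a description. Summits were 29 bp apart at ARHGAP29, 9 bp at DAPK3, 32 bp at TPBG and 1 bp at LY6K. Over 266 pairs in which each peak had 1 partner and both had a −log10 q of at least 1000, the median distance was 9 bp (quartiles 2.25 and 26.0). Over all 10569 such one-to-one pairs it was 46 bp (18 and 109). LY6K thus lay below the first quartile of the strong pairs, DAPK3 at their median, and ARHGAP29 and TPBG above the upper quartile.

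Both edges moved more than the summit at TPBG and LY6K, and the upstream edge did so at DAPK3. The TPBG peak of CDCA-treated cells began 71 bp and ended 192 bp further towards the 3′ end than the control peak. The LY6K peak began 92 bp further upstream and ended 38 bp further downstream in CDCA. At DAPK3 the upstream edge was 53 bp further out in CDCA and the 3′ edge differed by 2 bp. At ARHGAP29 the upstream edge was 27 bp and the 3′ edge 10 bp further upstream. All 4 leading peaks were longer in the CDCA list, by 17 bp at ARHGAP29, 55 bp at DAPK3, 121 bp at TPBG and 130 bp at LY6K. The bases common to both peaks made up 96.5% of all bases under either peak at ARHGAP29, 95.3% at DAPK3, 83.6% at TPBG and 76.0% at LY6K. The median for the 266 strong pairs was 88.7% (quartiles 77.7 and 95.7), so ARHGAP29 stood above the upper quartile and LY6K below the lower one.

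**Figure D4:**
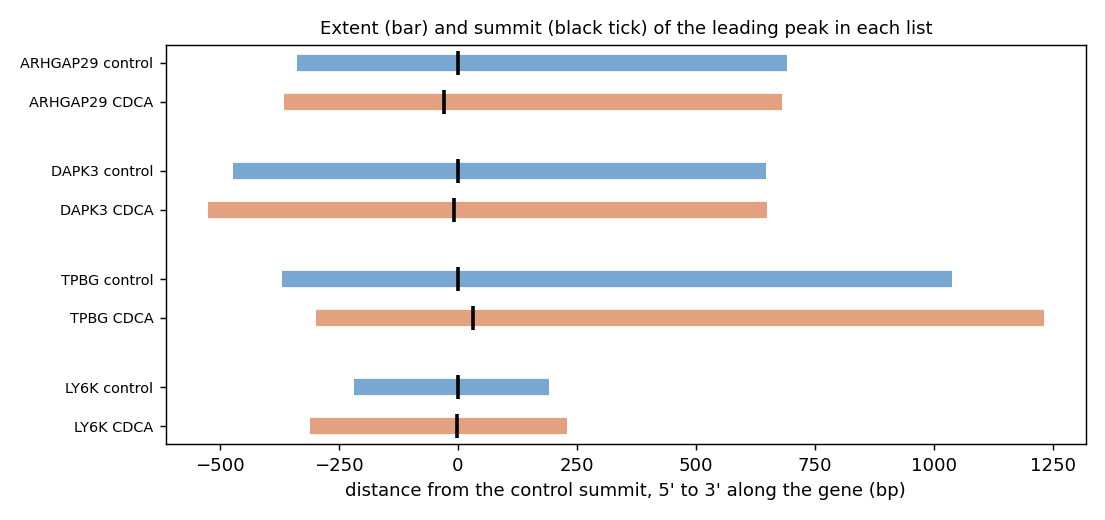
Extent (bars) and summit (black ticks) of the leading peak of each gene in the control and CDCA lists, in bp from the control summit, running 5′ to 3′ along the gene. Summits differ by 1 to 32 bp, and the largest shift of an edge is the 192 bp at the 3′ side of TPBG.

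Inside the peaks the summit was off centre at TPBG and ARHGAP29. Measured from the upstream edge, it stood at 26.2% of the peak's length in control and 21.6% in CDCA at TPBG, and at 32.9% and 32.2% at ARHGAP29, so most of each peak trailed towards the 3′ end. It stood at 42.2% and 44.0% at DAPK3. At LY6K it was near the middle, at 53.4% and 57.4%.

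ARHGAP29 held further m6A peaks in 2 zones of its span. In the 3′ part, from 12.2 kb downstream to 3.05 kb upstream of the leading summit, the control list had 4 further peaks and the CDCA list also 4. The tallest lay about 3 kb upstream, at 94642975 to 94643215 in control (height 520, fold 7.56, −log10 q 262) and 94642990 to 94643249 in CDCA (498, 7.33 and 245), with summits at 94643081 and 94643083. The leading peak was 30.9 times as tall in control and 27.5 times in CDCA. Downstream, a broad peak of 2190 bp at 94628449 to 94630638 in control (fold 6.90, −log10 q 103) met 2 peaks in CDCA. These were one of 479 bp at 94628398 to 94628876 (fold 12.4, −log10 q 74.0) and one of 2307 bp at 94629068 to 94631374 (fold 12.3, −log10 q 131). The summits of the broad peaks, 94629969 and 94629965, nearly coincided. A small peak at 94627742 to 94628022 in control (fold 9.02, −log10 q 59.3) had its partner at 94627721 to 94628011 in CDCA (10.7 and 104).

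One strong ARHGAP29 peak was listed in control only. It spanned 94632461 to 94632707, with a height of 304, a fold of 6.92 and a −log10 q of 143, and no CDCA peak came closer than 1087 bp. Peaks carry running numbers along each chromosome, and the CDCA list skips 1 number between its neighbours at this place. No listed peak of either library had a fold below 6. Where between the neighbours the missing number had been given, and to what kind of peak, cannot be read from the list.

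In the 5′ part of ARHGAP29, 80.9 to 98.7 kb upstream of the leading summit, none of 2 control and none of 4 CDCA peaks had a partner, where 18.2% and 22.2% of all peaks did. Control had its 2 peaks there, at 94722782 to 94722981 (fold 8.23, −log10 q 10.3) and 94738565 to 94738835 (14.5 and 26.7). CDCA had its 4, at 94720837 to 94721066 (11.2 and 17.9), 94726451 to 94726660 (13.03 and 21.3), 94730578 to 94730801 (9.73 and 13.1) and 94734097 to 94734296 (8.26 and 10.52). These 6 peaks rested on 16 to 34 fragments, and all stood at a background of 0.746 to 0.800, at or near the lowest of their list. The other list skipped no number beside 5 of the 6. Beside the CDCA peak at 94720837, control skipped 9 numbers over a stretch reaching back to the 3′ zone.

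LY6K held 2 further peaks in control and 1 in CDCA. A peak about 3 kb upstream of the leading summit was listed in both, at 143781505 to 143782066 in control (562 bp, fold 7.72, −log10 q 86.6) and 143781540 to 143781886 in CDCA (347 bp, 7.30 and 108). Its summits were 0.684 and 0.714 kb from the 5′ boundary of the span. A second control peak, at 143783926 to 143784266, had a height of 333, a fold of 16.7 and a −log10 q of 276, the highest significance of any peak in the spans that was not a leading one. It was not listed in CDCA, where the leading peak began 161 bp past its end, and the CDCA list skips 1 number between the neighbours. The fold of 16.7 is the control value, and the fold of this stretch in the CDCA library is not known. The leading LY6K peak was 19.0 times as tall as this second peak in control, and 32.7 times as tall as the upstream peak in CDCA.

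Counted over whole spans, ARHGAP29 had 4461 bp under a peak in control and 5249 bp in CDCA, with 3516 bp common to both. That was 3.51% and 4.13% of its span. DAPK3 had 1120 and 1175 bp (7.999% and 8.39%), TPBG 1409 and 1530 bp, and LY6K 1314 and 888 bp (26.3% and 17.8%). LY6K was the only one of the 4 with fewer covered bases in CDCA, and its 758 common bases compare with 1444 bp under a peak of either list. The leading peak made up all covered bases at DAPK3 and TPBG. At ARHGAP29 it made up 23.1% of them in control and 19.97% in CDCA, and at LY6K 31.3% and 60.9%.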

How the data were processed

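Peak lists of 2 immunoprecipitation libraries were used. Per the submitters' processing notes, the build was hg19 and MACS2 2.1.0 and TopHat2 2.0.13 were among the tools, with no step named; the input and thresholds are not stated. Per the file headers, the lists hold for each peak a summit height (pileup, a signal), −log10 of a p-value and of a q-value, and fold enrichment, a ratio. Peaks were listed per library. The authors also deposited plain intervals, which were identical for all 63093 and 52188 peaks.

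The members and spans were chosen with earlier results of these data known. The leading peak is the one with the highest −log10 q, and the 5 shared peaks nearest to it in −log10 q served as its neighbours. Background was computed as height plus 1 over fold, minus 1. Of backgrounds of at least 10, 75.7% (control) and 76.7% (CDCA) were whole and 19.0% and 19.3% other multiples of 0.2 (tolerance 0.005), so they were read as counts in 200 or 1000 bp. A whole value could also come from the wider window, which would narrow its interval. Summit intervals are exact Poisson intervals, fold intervals come from the exact binomial split of both counts, and shares carry Clopper-Pearson intervals. They cover counting error only, take fragments as independent, and leave out that the caller takes the largest of several backgrounds. Duplicate copies of fragments were not examined, and with many of them the intervals would be too narrow.

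A RefSeq table of GRCh38.p14 served for gene names, order and overlaps and to check chromosome and strand. All 4 symbols matched. The overlaps are those of that build and were not checked on hg19. An hg19 genome was not used here, so peak sequences, exons, untranslated regions and related genes were not analysed here. Alternatives covered thresholds, spans, overlap, equal list sizes and strength measures. Overlap steps were tested on 2000 simulated peaks. The tools were Python 3.11.15, scipy 1.17.1, numpy 2.4.6, matplotlib 3.10.9 and pandas 2.3.3.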

Additional observations from a re-analysis of the deposited data

How the results depend on the processing

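With a fold enrichment of at least 10, 6 of the 12 control peaks of the 4 genes remained, 4 of them shared, and 4 CDCA peaks were shared in place of 9; the 4 leading pairs passed this limit. The other alternatives, a −log10 q of at least 20, spans widened by 5 kb, any overlap with the span, equal list sizes, a mutual overlap of 50% and summits within 100 bp, kept the counts over the 4 genes within 1.5 times. The order of the 4 genes changed with the strength measure, for 14 of 24 ranks. Fragment numbers without a step were not run, since heights alone give no count. No paired analysis was possible because each condition had 1 library. Peaks of 16 to 34 fragments carry counting errors of about 35.2% to 52.6%.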

Other observations

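Within 30 kb of the spans, control listed 2 peaks beside ARHGAP29, 4 beside TPBG and 5 beside LY6K, and CDCA listed 2 beside each of these genes. Among them 1 of the 11 in the control list and 1 of the 6 in the CDCA list had a partner, where 18.2% and 22.2% of all peaks had one. The shared site lay on chromosome 8, about 20 kb below LY6K, at 143761223 to 143761733 in control (fold 11.6, −log10 q 58.3) and 143761235 to 143762062 in CDCA (7.22 and 56.4). The peak closest to a span was a CDCA peak 2247 bp past TPBG, at 83080095 to 83080313 (fold 6.21). The nearest outside ARHGAP29 was a CDCA peak 4376 bp past its 5′ boundary (9.36 and 13.1), and the nearest outside LY6K a control peak 5159 bp before its 5′ boundary (6.79 and 7.92). Apart from the shared site and a CDCA peak beyond LY6K at 143807816 to 143808122 (15.4 and 52.7), none of the flanking peaks reached a −log10 q of 50.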
